A study of Homo sapiens with 7 samples.

Results

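The long arm of chromosome 3 ended in a stretch of unusually dense H3K27ac contacts in endometrial, breast and prostate cancer cells. That stretch, called the segment here, covers the last 32 Mb of the chromosome (chr3:166000001-198022430, hg19). A loop is a pair of different anchors joined by read pairs, and the loops described are those on chromosome 3 with both anchor midpoints inside it. They number 8112 of 163530 loops in Ishikawa, 1321 of 42027 in T-47D and 3833 of 149226 in LNCaP. The segment was selected on its loop density in these same lists, so the density is given as a description and supports nothing further. The annotation places the start sites of 187 of 20163 protein-coding genes in the segment.

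H3K27ac HiChIP ligates DNA ends that lie close together in the nucleus and then enriches fragments that carry acetylated lysine 27 of histone H3. Ishikawa is a line of endometrial adenocarcinoma, with 4 samples: 2 treated with the vehicle DMSO and 2 with 10 nM E2, the estrogen 17β-estradiol, for 1 h. T-47D is a line of ductal carcinoma of the breast with 1 sample, and LNCaP is a line of prostate carcinoma with 2 samples. The labels do not give a treatment for T-47D or LNCaP. Ishikawa chromatin was cut with DpnII and chromatin of both other lines with MboI, enzymes that recognise the same site, GATC. The sonicator, the length of the reads and the sequencing depth differed in the same way, so they cannot be told apart from the cell line in any comparison with Ishikawa. The authors merged samples before deposit, so each line has 1 list and no value below has a replicate error or a test. The lists held 1040329 read pairs in Ishikawa, 351260 in T-47D cells and 1805322 in LNCaP, and no loop was listed below 3 read pairs. The LNCaP list was confined to spans of 5 kb to 2 Mb and had no pair of an anchor with itself. The line labels were checked on read pairs in promoter loops of marker genes. All 9 markers were highest in their own line, such as KLK3 with 2936 in LNCaP, TRPS1 with 2557 in T-47D and PAX8 with 162 in Ishikawa, and TMPRSS2 also had 231 in Ishikawa beside 1056 in LNCaP.

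Acetylation of histone H3 at lysine 27 marks active promoters and enhancers, the distal elements that raise transcription of genes they contact. Enhancers of 1 gene often lie in clusters, and an anchor joined to many others is called a hub here. The distal long arm of chromosome 3 is known in cancer genetics as a region that is often gained in squamous carcinomas, and it holds PIK3CA, SOX2, TP63, MECOM, BCL6 and the telomerase RNA gene TERC. The number of DNA copies was not measured here. In bulk cells, more contacts per cell and more cells with a contact cannot be told apart.

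The promoters of the genes on which most of the results turn are shown first, from 250 bases before to 50 bases after a start site, as RefSeq sequence of GRCh38.p14. The table held promoters for 159 of the 187 genes. Their hg19 positions were found by an exact match to GRCh37. Capitals mark matches on either strand to any of the motifs listed after them.
MECOM, far upstream start, chr3:169381451-169381750, minus strand: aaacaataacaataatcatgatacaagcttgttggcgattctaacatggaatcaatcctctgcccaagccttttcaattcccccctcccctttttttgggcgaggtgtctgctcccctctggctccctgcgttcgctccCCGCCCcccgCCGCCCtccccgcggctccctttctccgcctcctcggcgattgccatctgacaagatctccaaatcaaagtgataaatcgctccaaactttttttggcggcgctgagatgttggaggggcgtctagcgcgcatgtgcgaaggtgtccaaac
MECOM, inner start, chr3:168865210-168865509, minus strand: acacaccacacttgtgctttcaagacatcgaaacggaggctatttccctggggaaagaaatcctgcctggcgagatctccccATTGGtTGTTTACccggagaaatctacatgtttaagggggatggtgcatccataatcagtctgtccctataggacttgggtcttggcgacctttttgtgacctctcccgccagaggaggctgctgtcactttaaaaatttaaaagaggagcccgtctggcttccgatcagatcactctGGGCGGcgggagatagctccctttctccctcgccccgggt
NAALADL2, chr3:174576874-174577173, plus strand: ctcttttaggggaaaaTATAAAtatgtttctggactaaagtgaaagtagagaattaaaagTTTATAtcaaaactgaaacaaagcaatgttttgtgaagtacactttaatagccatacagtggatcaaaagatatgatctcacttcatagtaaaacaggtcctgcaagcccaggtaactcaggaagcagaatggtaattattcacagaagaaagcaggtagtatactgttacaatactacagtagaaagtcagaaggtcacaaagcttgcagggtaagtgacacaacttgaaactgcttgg
TBL1XR1, chr3:176915221-176915520, minus strand: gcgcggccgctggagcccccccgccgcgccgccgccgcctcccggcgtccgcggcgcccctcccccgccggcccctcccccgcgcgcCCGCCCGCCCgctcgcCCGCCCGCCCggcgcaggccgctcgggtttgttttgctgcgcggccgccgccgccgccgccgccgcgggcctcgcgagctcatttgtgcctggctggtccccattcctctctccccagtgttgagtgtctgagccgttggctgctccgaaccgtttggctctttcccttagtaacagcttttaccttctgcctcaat
HES1, chr3:193853687-193853986, plus strand: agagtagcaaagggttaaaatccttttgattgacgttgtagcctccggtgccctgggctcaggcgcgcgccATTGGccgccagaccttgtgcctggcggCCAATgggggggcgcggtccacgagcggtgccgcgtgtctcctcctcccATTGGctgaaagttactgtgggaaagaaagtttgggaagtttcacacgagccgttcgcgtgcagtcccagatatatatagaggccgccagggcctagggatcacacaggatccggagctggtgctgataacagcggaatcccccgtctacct
BCL6, chr3:187463207-187463506, minus strand: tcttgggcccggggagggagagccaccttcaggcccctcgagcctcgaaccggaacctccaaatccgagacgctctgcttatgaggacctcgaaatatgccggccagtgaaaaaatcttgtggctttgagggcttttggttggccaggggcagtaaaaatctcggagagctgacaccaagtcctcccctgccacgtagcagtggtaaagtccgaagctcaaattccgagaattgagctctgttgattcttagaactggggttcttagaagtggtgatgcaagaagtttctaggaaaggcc
The motifs searched were the CCAAT box (CCAAT), the GC box (GGGCGG), the E-box (CACGTG), the TATA box (TATAAA), AP-1 (TGANTCA), the forkhead motif (TGTTTAC) and the GATA motif (AGATAA), and none of them contains another. The CCAAT box occurred in 32.9% of the 225 promoters of segment genes and in 34.6% of all 35116 promoters of that table, and the GC box in 56% and 45%. The shares were 7.56% and 7.26% for the E-box, 12% and 11.5% for the TATA box, 8.89% and 7.71% for AP-1, 3.11% and 3.42% for the forkhead motif, and 6.67% and 10.3% for the GATA motif. The TBL1XR1 promoter was 75% G and C and held 4 overlapping GC boxes in 2 runs. The NAALADL2 promoter printed, at an inner start, was 35.7% G and C, had no CpG and held 2 TATA boxes. The HES1 promoter held 3 CCAAT boxes. The far upstream MECOM promoter held 2 GC boxes and the BCL6 promoter none of the motifs. A match is a run of letters and not evidence that a factor binds there.

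Loop anchors are built from restriction fragments, so their edges show the cut site. For the segment anchor with most partners in each line, 60 bases around its edges are given from GRCh37, with the GATC site in capitals, and for T-47D the distal edge is shown.
Ishikawa hub, proximal edge, chr3:168949995-168950054, plus strand: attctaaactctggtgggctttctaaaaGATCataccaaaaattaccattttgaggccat
Ishikawa hub, distal edge, chr3:168998879-168998938, plus strand: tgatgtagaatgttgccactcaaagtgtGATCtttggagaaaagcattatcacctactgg
T-47D hub, distal edge, chr3:176917470-176917529, plus strand: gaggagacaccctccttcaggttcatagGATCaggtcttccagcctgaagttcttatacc
LNCaP hub, proximal edge, chr3:175189374-175189433, plus strand: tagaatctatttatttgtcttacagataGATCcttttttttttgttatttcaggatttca
LNCaP hub, distal edge, chr3:175218550-175218609, plus strand: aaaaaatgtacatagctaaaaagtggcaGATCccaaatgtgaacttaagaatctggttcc
Every anchor of chromosome 3 began at a GATC site in each list (100%). The sites were about as frequent in segment anchors as in the other anchors of the chromosome, at a median of 2.19 and 2.2 per kb in Ishikawa, 2.09 and 2.1 in T-47D, and 2.08 and 2.14 in LNCaP. Anchors of the segment were slightly poorer in G and C, with medians of 39.3% against 40.5% in Ishikawa, 43.6% against 47.9% in T-47D and 39.9% against 41% in LNCaP.

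Loop density in the segment was above that of the rest of chromosome 3 in every list. Ishikawa had 253 loops per Mb in the segment and 40.6 in the rest of the chromosome, a ratio of 6.24. T-47D had 41.3 and 9.43 loops per Mb, a ratio of 4.37, and LNCaP had 120 and 41.4, a ratio of 2.89. The loops of the segment made up 4.96% of the Ishikawa list, 3.14% of the T-47D list and 2.57% of the LNCaP list, and the segment is 1.03% of the length of the nuclear chromosomes. They carried 58870 read pairs in Ishikawa cells, 10817 in T-47D and 70606 in LNCaP, which was 5.66%, 3.08% and 3.91% of each list. The density came both from more anchors and from more partners per anchor. Anchors per Mb were 62.1 against 28.8 in Ishikawa, 13.9 against 5.42 in T-47D and 21.3 against 13.7 in LNCaP. Each anchor of the segment had on average 8.16 partners in Ishikawa against 2.81 in the rest of the chromosome. The same means were 5.95 against 3.48 in T-47D and 11.2 against 6.03 in LNCaP.

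**Figure D1:**
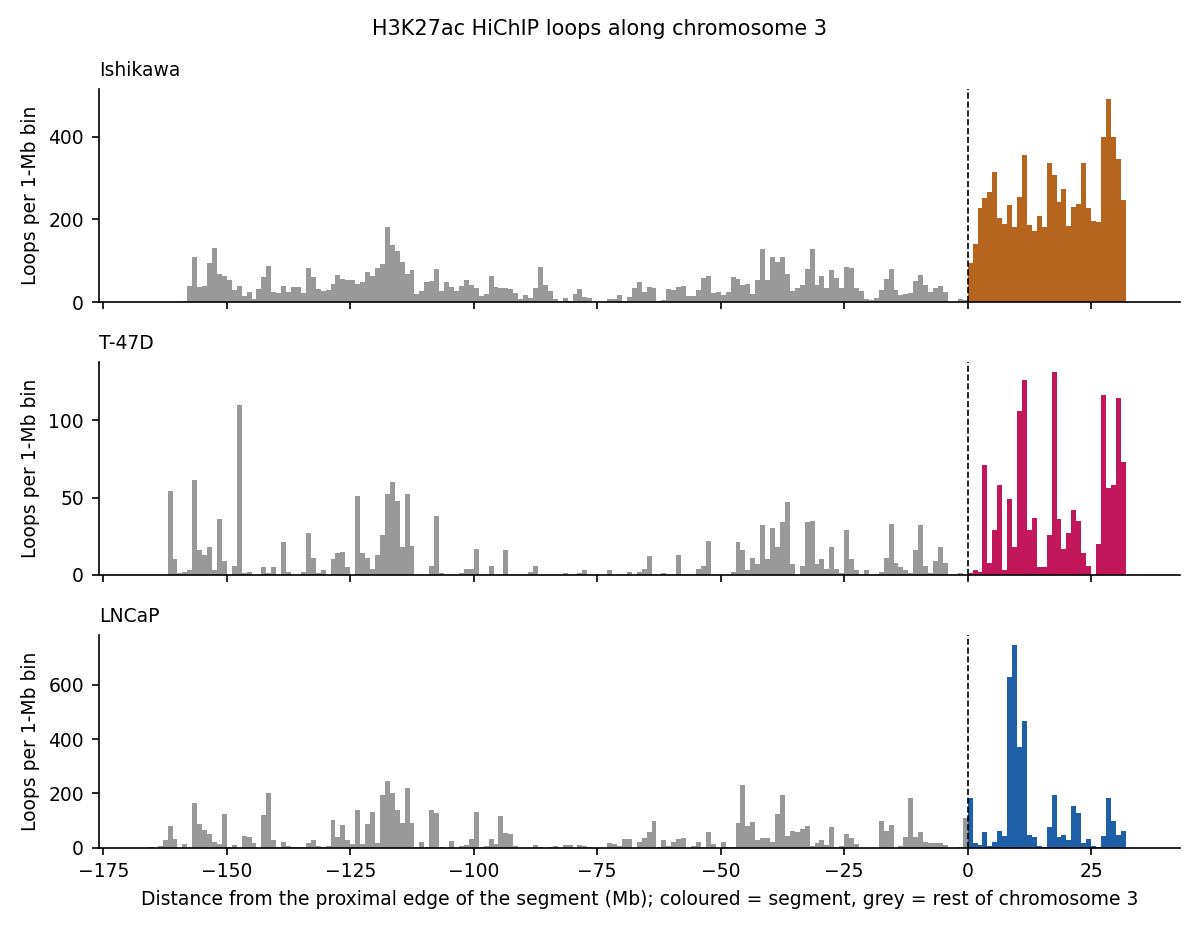
Loops per bin of 1 Mb (vertical axis, with a scale of its own for each line) against the distance from the proximal edge of the segment in Mb (horizontal axis), each loop placed at the midpoint between its anchors. Coloured bars are bins of the segment and grey bars the rest of chromosome 3. Ishikawa bars step up at the edge and stay high, with 94 to 491 loops per full bin, whereas T-47D and LNCaP bars form separate peaks.

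At the edge itself the lines differed. The last Mb before the edge held 6 loops of Ishikawa, 0 of T-47D and 110 of LNCaP, and the first Mb after it held 94, 1 and 185, each loop counted at its midpoint whether or not it crossed. The 3 bins of 1 Mb before that last Mb held 1, 0 and 8 Ishikawa loops. No Ishikawa or T-47D loop crossed the edge, whereas 90 LNCaP loops with 592 read pairs did. The first Ishikawa anchor inside lay 79.1 kb from the edge and the last outside 288 kb from it. In LNCaP the nearest anchors were 26.4 kb inside and 56.6 kb outside, and in T-47D 592 kb inside and 1901 kb outside. The step coincided with the edge in Ishikawa only, and in LNCaP contacts ran across it.

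Read pairs that join an anchor to itself were not used to choose the segment, although they come from the same libraries. In Ishikawa they amounted to 580 per Mb in the segment and 116 per Mb in the rest of chromosome 3. In T-47D they amounted to 263 and 74.4 per Mb. The LNCaP list had none. Both lines with such pairs had more of them per Mb in the segment.

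Ishikawa loops came as 4 runs of sorted pairs, called parts here, that are not named by sample or treatment. Loops of the segment numbered 4019, 1456, 2447 and 5191 in the 4 parts, at 7.91, 9, 6.36 and 6.5 times the density of the rest of chromosome 3. The parts were summed into the list on which the segment was chosen. Their higher density is therefore a description and no independent check. Of the segment loops 38.5% occurred in 2 or more parts, against 33.6% in the rest of the list. Loops in all 4 parts had a median of 24 read pairs and those in 1 part a median of 3.

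Along the segment the 3 lines followed different profiles. Ishikawa loops were spread over all 32 full bins of 1 Mb, from 94 to 491 with a median of 236 and a coefficient of variation of 0.334. T-47D loops ranged from 0 to 131 per bin with a median of 29, and 9 bins had fewer than 10. LNCaP loops ranged from 2 to 746 with a median of 48, and 6 bins had fewer than 10. The 4 fullest bins held 20.3% of Ishikawa loops, 36.9% of T-47D loops and 57.7% of LNCaP loops. Across the 32 bins Spearman's rho of loops was 0.594 for Ishikawa and T-47D, 0.59 for T-47D and LNCaP and 0.282 for Ishikawa and LNCaP. These describe bins that share a genome sequence and gene content, and no test was made of them.

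The fullest Ishikawa bins lay near the telomere. The bin from 194 Mb held 491 loops around XXYLT1, TMEM44, ATP13A3 and LSG1. The neighbouring bins held 400 loops each, from 193 Mb around OPA1, ATP13A4 and HES1, and from 195 Mb around TNK2, MUC4 and the transferrin receptor gene TFRC. The fullest T-47D bin began at 183 Mb, with 131 loops and 1809 read pairs over a gene-rich stretch from PARL and MAP6D1 to ALG3. It was followed by the bin from 177 Mb, distal to TBL1XR1, with 126 loops, and the bin of HES1 from 193 Mb with 116. T-47D had no loop centred in the bin of CCDC50 and UTS2B and 2 in the bin over the 3′ part of MECOM. The fullest LNCaP bins were those from 175 Mb with 746 loops and 25300 read pairs, from 174 Mb with 629 and 19094, and from 177 Mb with 466 and 6253. The emptiest LNCaP bin, with 2 loops, was that of SOX2 from 181 Mb.

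The 4 Mb from 174 to 178 Mb held NAALADL2, TBL1XR1 and the 5′ end of KCNMB2, and are the 4 fullest bins of LNCaP. They held 2212 LNCaP loops, which were 57.7% of its segment loops and 78.1% of its segment read pairs. The same 4 Mb held 299 T-47D loops (22.6%) and 1025 Ishikawa loops (12.6%). In loops per Mb these were 553, 74.8 and 256. Outside these 4 Mb the density over the rest of chromosome 3 was 6.23 in the Ishikawa list, 3.87 in T-47D and 1.4 in LNCaP, beside 6.24, 4.37 and 2.89 with them. The 4 Mb were singled out after these values were seen, as the fullest of LNCaP. That the LNCaP ratio fell most was set by that choice.

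**Figure D2:**
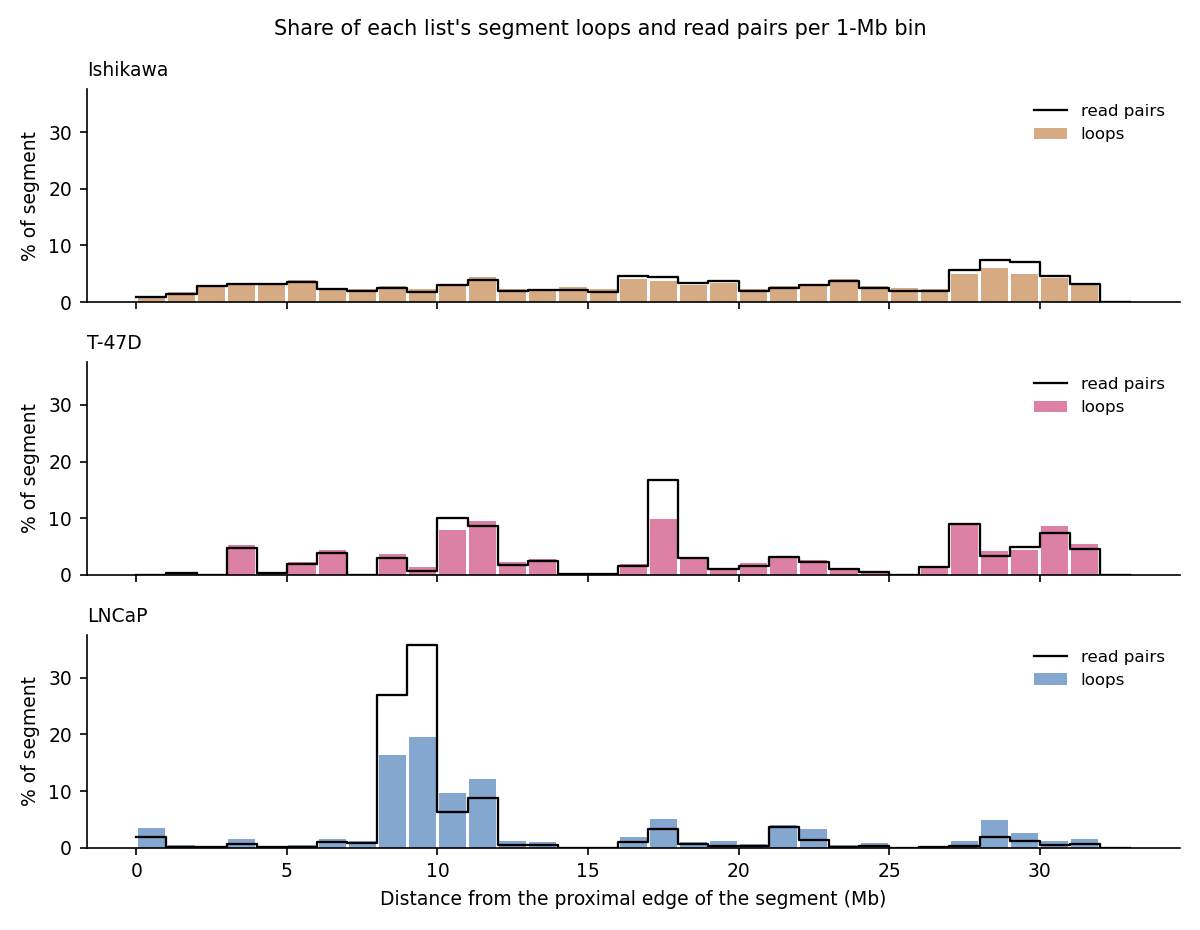
Percent of the segment's loops (bars) and read pairs (black line) of each list per bin of 1 Mb, against the distance from the proximal edge in Mb. Ishikawa bins are all low and similar, T-47D has several separate peaks, and in LNCaP the bins 8 to 12 Mb from the edge hold 57.7% of loops and 78.1% of read pairs.

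Single loops of the segment held more read pairs than those elsewhere in Ishikawa and LNCaP by mean and by the share of strong loops, and about as many in T-47D. The median was 4 read pairs per loop in Ishikawa, 5 in T-47D cells and 6 in LNCaP, beside 4, 5 and 5 in the rest of each list. The strongest loop had 90 read pairs in Ishikawa cells, 223 in T-47D and 2184 in LNCaP. Loops of 10 read pairs or more made up 21.4% of Ishikawa segment loops (95% Wilson interval 20.5 to 22.3), against 16.6% (16.5 to 16.8) in the rest of the list and 13.4% in the rest of chromosome 3. They made up 20.9% in T-47D (18.8 to 23.2) against 21.3%, and 32.7% in LNCaP (31.2 to 34.2) against 27.2%. Mean read pairs per loop over that of the rest of the list were 1.15 in Ishikawa, 0.979 in T-47D cells and 1.54 in LNCaP, and the LNCaP ratio was 0.801 without the loops of 174 to 178 Mb. Loops at the minimum of 3 made up 41.6% in the Ishikawa list, 30.2% in T-47D and 21.8% in LNCaP. The intervals cover counting error only, and loops that share an anchor are not independent.

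Loops of the segment were longer than those elsewhere. Median span was 62.3 kb in Ishikawa, 151 kb in T-47D cells and 244 kb in LNCaP. In the rest of each list it was 36.1, 84.5 and 111 kb. A loop of the segment passed over a median of 3 other anchors in Ishikawa, 3 in T-47D cells and 9 in LNCaP, beside 1, 2 and 4 in the rest of the lists. Neighbouring anchors were joined by 20.3% of loops in Ishikawa cells, 21% in T-47D and 10.9% in LNCaP. In LNCaP the loops of 174 to 178 Mb had a median span of 406 kb, and without them its ratio of medians to the rest of the list was 1.18 in place of 2.19. Loops over 2 Mb numbered 5 in Ishikawa and 15 in T-47D. The longest, with 3 T-47D read pairs over 13.9 Mb, joined SEC62, a gene of protein import into the endoplasmic reticulum, to the PARL anchor. Anchors had median widths of 5.39 kb in Ishikawa, 2.6 kb in T-47D cells and 3.33 kb in LNCaP, and covered 40.9%, 4.1% and 9.51% of the segment.

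Most loops of the segment in Ishikawa and LNCaP joined distal anchors to each other. A promoter is a window of 500 bp around a start site of a protein-coding gene, and a distal anchor holds none. Loops between distal anchors made up 69.8% in the Ishikawa list, 40.5% in T-47D and 71.9% in LNCaP, beside 65.9%, 23.3% and 38.7% in the rest of each list. Loops between promoters made up 4.61%, 20.6% and 5.84%, beside 7.05%, 37.1% and 20.7%. Loops from a promoter to a distal anchor made up 25.6%, 38.9% and 22.3%, beside 27%, 39.6% and 40.6%. The Wilson intervals of the distal share were 68.8 to 70.8 in Ishikawa cells, 37.9 to 43.2 in T-47D cells and 70.4 to 73.3 in LNCaP. They lay above those of the rest of each list. The LNCaP share includes the stretch from 174 to 178 Mb, which held 2212 loops, or 57.7% of its segment loops. In LNCaP, NAALADL2 had 125 promoter loops and TBL1XR1 had 165. The distal share was not computed without that stretch. Whether the LNCaP share holds for the rest of the segment was therefore not tested. In the rest of chromosome 3 the distal share was 67.8% in Ishikawa (66.7 to 68.9), which overlaps the segment's interval. It was 23.9% in T-47D (21.8 to 26.1) and 38.9% in LNCaP (37.8 to 40.1). These intervals cover counting error only, loops that share an anchor are not independent, and no test was made. Promoters were found in 13.5% of segment anchors in Ishikawa, 27.7% in T-47D cells and 19.2% in LNCaP, and in 16.6%, 49.6% and 29.6% elsewhere.

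**Figure D3:**
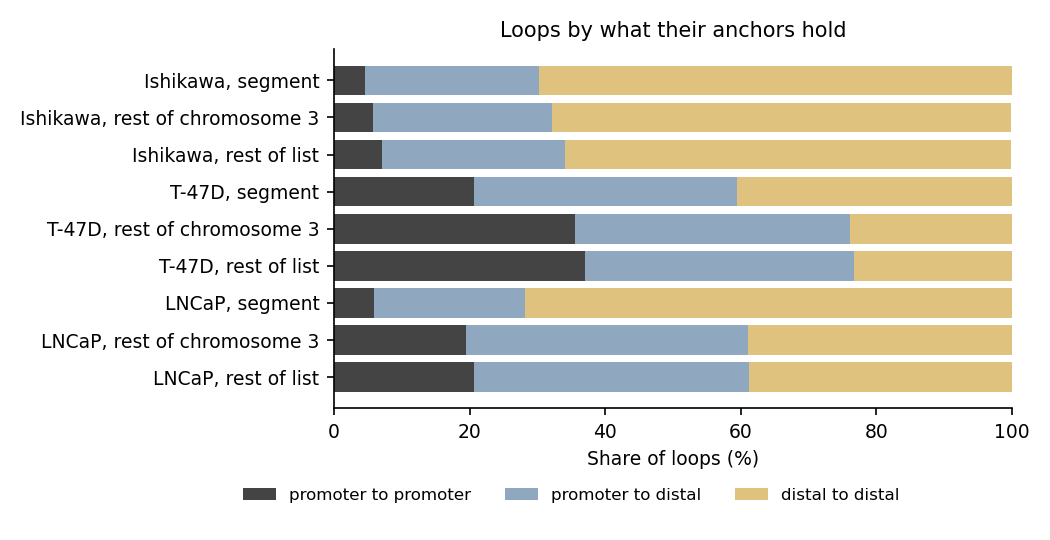
Share of loops in percent (horizontal axis) between promoters, from a promoter to a distal anchor and between distal anchors, for the segment, the rest of chromosome 3 and all of the list outside the segment in each line. The distal share of the segment is 71.9% in LNCaP and 40.5% in T-47D, against 38.7% and 23.3% outside it. In Ishikawa it is 69.8% against 65.9%. The LNCaP share includes the loops of 174 to 178 Mb, 57.7% of its segment loops, and was not computed without them.

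The strongest loops lay in different places in each line. In Ishikawa the strongest, with 90 read pairs in 4 of 4 parts, joined chr3:189015732-189037614 and chr3:189038879-189057443 at the 3′ end of TPRG1, and the same regions were joined by 37 read pairs in T-47D and 0 in LNCaP. The next had 75 read pairs, one between intergenic anchors 173 kb from OPA1 and one between promoters of MUC4, a membrane mucin of epithelia. The first was at 0 in both other lists, and the second had 3 read pairs in T-47D and 0 in LNCaP. A second TPRG1 loop had 74, and a loop within TNK2, a non-receptor tyrosine kinase gene, had 73.

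In T-47D the strongest loop had 223 read pairs and joined the promoter of MAP6D1 (chr3:183541842-183545800) to an inner promoter of PARL (chr3:183562047-183566266), the gene of a rhomboid protease of mitochondria. No loop joined these regions in the Ishikawa or LNCaP list. Another PARL loop had 100 read pairs in T-47D, 7 in LNCaP and 0 in Ishikawa. A TNK2 loop had 108 read pairs in T-47D, 214 in LNCaP and 0 in Ishikawa. An Ishikawa anchor (chr3:195623605-195654537) overlapped both of its anchors, and a contact within that anchor would not count as a loop. The Ishikawa 0 at TNK2 therefore cannot be read as a missing contact. A loop from EIF2B5, which encodes a subunit of the exchange factor for eIF2, to DVL3, a gene of Wnt signalling, had 105 read pairs in T-47D, 62 in LNCaP and 8 in Ishikawa. Of these strong T-47D loops the EIF2B5 to DVL3 loop was listed as a loop in all 3 lists.

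In LNCaP the 5 strongest loops, with 2184, 1737, 1162, 909 and 787 read pairs, all lay within NAALADL2, a gene of the glutamate carboxypeptidase family. The strongest joined chr3:175189402-175218577 and chr3:175251619-175282627, of which the first overlaps an exon and the second is intronic, and neither holds a promoter. The same pairs of regions had 0, 0, 0, 15 and 15 read pairs in Ishikawa, while T-47D had 0. In all, 730 LNCaP loops with 34591 read pairs had both anchors on NAALADL2, which was 49% of LNCaP read pairs of the segment. Ishikawa had 254 such loops with 1644 read pairs (2.79%), and T-47D had 49 with 313 (2.89%). The NAALADL2 gene spans 1372 kb.

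Repeats could blur the placement of reads, and the strong anchors were checked for them. Of the windows of 50 bases in the LNCaP anchors of these loops, 0.306% to 3.33% occurred again on chromosome 3. In the Ishikawa anchors the range was 0.594% to 12.4%, highest at MUC4 and TNK2, and in the T-47D anchors 0% to 4.38%.

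The anchors with most partners also differed. In Ishikawa an anchor of 48.9 kb over an inner start site of MECOM, a zinc finger transcription factor of blood stem cells, had 60 partners and 706 read pairs. Its partners lay up to 1134 kb proximal and 1357 kb distal. Overlapping anchors had 0 partners in T-47D and 8 in LNCaP. Anchors at XXYLT1, a xylosyltransferase gene, and TMEM44 followed with 59 and 48 partners in Ishikawa, 5 and 6 in T-47D, and 6 and 5 in LNCaP. In T-47D the leading anchor was the TBL1XR1 promoter printed above, with 38 partners, where overlapping anchors had 67 in LNCaP and 8 in Ishikawa. The T-47D anchor ranked after it was intergenic, 64.2 kb from TBL1XR1, and had 34 partners, against 42 in Ishikawa and 13 in LNCaP. The T-47D anchor in the lncRNA gene LINC00578 had 31, with 32 in Ishikawa and 30 in LNCaP, and was thus the most evenly joined of the 9. In LNCaP the leading anchors were 3 intragenic regions of NAALADL2 with 123, 105 and 96 partners. At these regions Ishikawa had 2, 0 and 5 partners and T-47D 2, 0 and 0. The 3 leading anchors were 23.2 to 48.9 kb wide in Ishikawa, 5.04 to 6.34 kb in T-47D and 29.2 to 31 kb in LNCaP. Partner counts were not set against width.

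The part of the segment loops found in another line was 7.29% for Ishikawa, 39.9% for T-47D and 20% for LNCaP. A loop counts as shared when both anchors overlap those of 1 loop of the other list by at least 1 base. Of T-47D segment loops, 28.3% were found in LNCaP, against 39.2% in the rest of the list, and 17.9% in Ishikawa, against 9.68%. Of LNCaP segment loops, 13.6% were found in Ishikawa, against 6.22%, and 9.11% in T-47D, against 10.3%. Of Ishikawa segment loops, 5.76% were found in LNCaP and 2.54% in T-47D, against 5.22% and 2.18%. The wide Ishikawa anchors, which covered 40.9% of the segment, overlapped 68.2% of the T-47D anchors and 65.3% of those of LNCaP there, against 49.9% and 40% elsewhere. Overlap of 50% of both anchors brought the shares found in Ishikawa down to 0.606% of T-47D loops and 1.02% of LNCaP loops, so they depend on the overlap rule. A narrow anchor that lies wholly within a much wider Ishikawa anchor fails the 50% rule by its width alone. The fall therefore cannot show whether the loops found by the looser rule are the same contacts.

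Loops found in all 3 lists were 83 of the T-47D list (6.28%), 101 of the LNCaP list (2.64%) and 82 of the Ishikawa list (1.01%). Among the 10 of these with most T-47D read pairs, the EIF2B5 to DVL3 loop described above came first. DVL3 to AP2M1, which encodes a subunit of the clathrin adaptor, had 65 read pairs in T-47D, 19 in LNCaP and 3 in Ishikawa. DVL3 to ALG3, a mannosyltransferase gene of N-glycan synthesis, had 57, 18 and 4. In the same order, AP2M1 to ABCF3 had 25, 25 and 39, and was the one among the first 10 with most read pairs in Ishikawa. Loops of the first 10 also lay at TBL1XR1 (30, 30 and 22), BCL6 (27, 18 and 9) and LINC00578 (35, 70 and 6). In no other list were 92.7% of Ishikawa loops, 60.1% of T-47D loops and 80% of LNCaP loops.

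Genes of the segment were often linked to distal anchors, most so in Ishikawa. A gene is linked to each distal anchor joined to an anchor over any of its promoters. In Ishikawa 156 of 187 genes were linked (83.4%, Wilson interval 77.4 to 88.1), against 52.2% of all other protein-coding genes. In T-47D 105 were linked (56.1%, 49 to 63.1) against 34.5%, and in LNCaP 110 (58.8%, 51.7 to 65.6) against 52.3%. The median over all 187 genes was 6 linked anchors in Ishikawa cells, 1 in T-47D and 1 in LNCaP, and over the other genes it was 1, 0 and 1. Genes with 10 or more numbered 67, 13 and 21. The protein-coding gene with most linked distal anchors in the whole list lay in the segment in each line. It was MECOM with 55 in Ishikawa, TBL1XR1 with 37 in T-47D and NAALADL2 with 74 in LNCaP, where the highest values outside the segment were 52, 36 and 72. Density chose the segment, so these counts describe it and are not independent of the choice.

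MECOM (chr3:168801287-169381563, minus strand) was joined in Ishikawa to 55 distal anchors, with 1008 read pairs in its promoter loops. T-47D had 16 linked anchors with 160 read pairs, and LNCaP had 0. Of the Ishikawa anchors 30 lay within the gene and 25 outside, the farthest 1000 kb away. Its far upstream promoter and its inner promoter, both printed above, each lay in an anchor in Ishikawa and in T-47D and in none in LNCaP. LNCaP was thus the line without a listed MECOM promoter loop. The Ishikawa hub anchor, 48.9 kb wide, counts here as a promoter anchor. LNCaP anchors that overlap it held no MECOM promoter and had 8 partners, against 0 in T-47D.

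NAALADL2 (chr3:174156363-175528336, plus strand) counted 52 linked anchors in the Ishikawa list, 28 in T-47D and 74 in LNCaP, with 428, 310 and 4682 read pairs. It was among the first 5 genes of the whole list in each line. In LNCaP 52 of the 74 lay within the gene. The A- and T-rich promoter printed above lies inside this span and not at its 5′ end. It lay in an anchor in all 3 lists.

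TBL1XR1 (chr3:176737128-176945788, minus strand), which encodes a subunit of the NCoR and SMRT corepressor complexes, had 25 linked distal anchors in Ishikawa, 37 in T-47D cells and 66 in LNCaP. Its promoter loops held 228, 449 and 2709 read pairs. Most of the anchors lay outside the gene in T-47D (31 of 37) and LNCaP (54 of 66). LNCaP was highest in both counts, but as a share of the read pairs of the segment the order was T-47D (4.15%), LNCaP (3.84%) and Ishikawa (0.387%).

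HES1 (chr3:193853937-193856521, plus strand), a transcriptional repressor and target of Notch signalling, counted 31 linked distal anchors in Ishikawa cells, 26 in T-47D and 9 in LNCaP, with 309, 335 and 64 read pairs. All of them lay outside this short gene, up to 1239 kb away in T-47D. BCL6 (chr3:187439165-187463513, minus strand), a repressor known from germinal centre B cells, ran the other way, with 5, 10 and 39 linked anchors and 24, 193 and 786 read pairs. Its neighbour LPP, which encodes a LIM domain protein of focal adhesions, had 24, 5 and 43 linked anchors and 237, 34 and 1573 read pairs. LNCaP had the highest counts of the 3 lists at both neighbours. As a share of the read pairs of the segment, LPP was also highest in LNCaP (2.23%, against 0.403% in Ishikawa and 0.314% in T-47D), whereas BCL6 was highest in T-47D (1.78%, against 1.11% in LNCaP and 0.0408% in Ishikawa).

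Several genes had more linked anchors in Ishikawa than in both other lists, which differ in depth and have narrower anchors. XXYLT1 had 53 in the Ishikawa list, 1 in T-47D and 4 in LNCaP, with 1300, 36 and 100 read pairs. PLD1, the phospholipase D1 gene, had 47, 4 and 5. OPA1, which encodes the GTPase that fuses inner mitochondrial membranes, had 47 in Ishikawa, with 594 read pairs, and no promoter loop in either other list. ATP13A4, a P-type ATPase gene, had 35 and 0 in both others. It starts beside OPA1 on the opposite strand, so loops of an anchor over both start sites count for both genes. TMEM44 had 37, 3 and 2, TPRG1 44, 14 and 8, and TNIK, a kinase gene of Wnt signalling, 30, 8 and 0. As a share of the read pairs of the segment TPRG1 and TNIK were not low in T-47D, where TPRG1 made up 2.19% against 0.81% in Ishikawa and TNIK 0.601% against 0.523%. TMEM44 stayed low on that scale, with 0.361% in T-47D against 1.33% in Ishikawa.

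Other leading genes were more even or favoured LNCaP or T-47D. TNK2 had 25, 14 and 20 linked anchors with 875, 354 and 450 read pairs. DLG1, a scaffold gene of cell polarity, had 23, 12 and 6, and BDH1, which encodes a ketone body dehydrogenase, 19, 12 and 7. FAM43A had 0, 6 and 23, LSG1, a GTPase gene of ribosome export, 9, 7 and 21, and ALG3 3, 5 and 14. PARL had 5, 11 and 10, but its read pairs were 46 in Ishikawa, 745 in T-47D cells and 183 in LNCaP. The PARL reads of T-47D thus lay mostly in loops between promoters rather than to distal anchors.

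**Figure D4:**
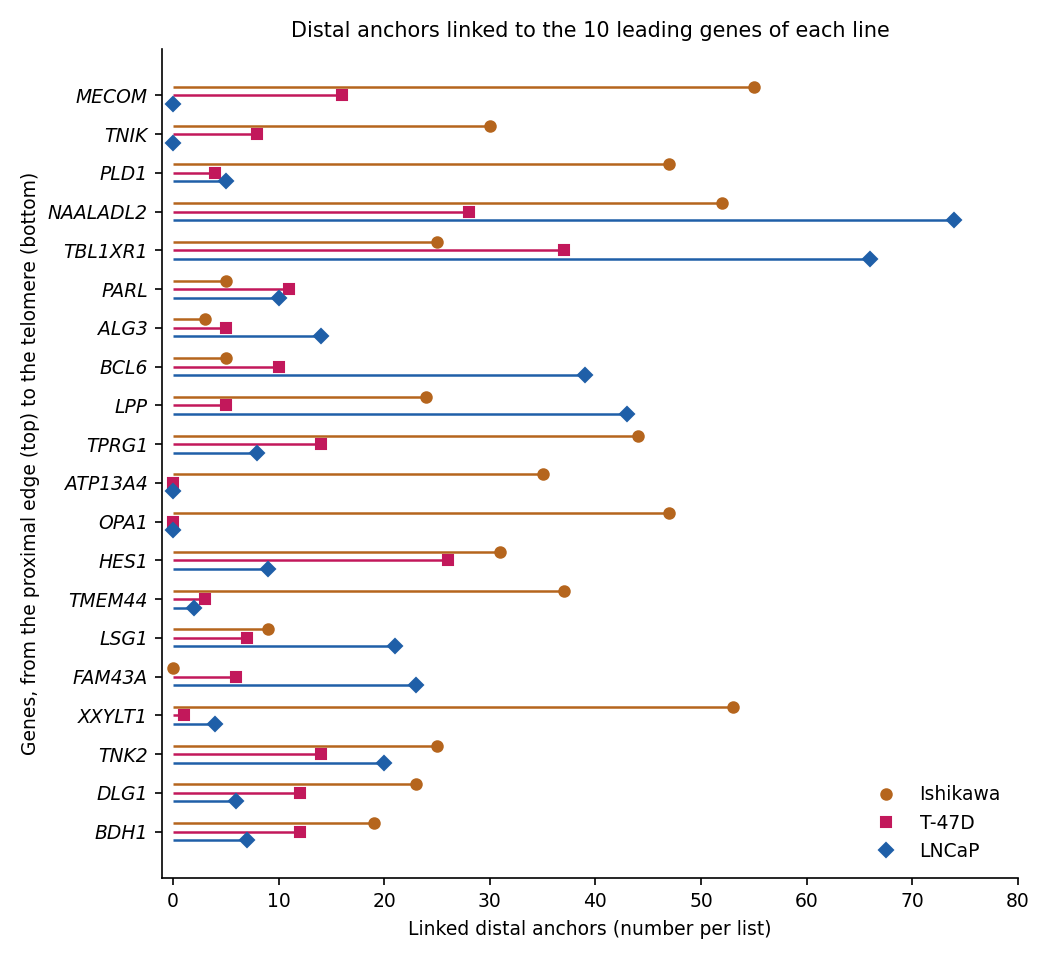
Number of linked distal anchors (horizontal axis) in each list for the named genes among the 10 with most in any line, ordered from the proximal edge to the telomere. Points are single values per pooled list with no error. MECOM has 55 in Ishikawa cells, 16 in T-47D and 0 in LNCaP, while TBL1XR1 has 25, 37 and 66.

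The genes were also grouped by known role, in lists chosen with earlier results known. The counts stand beside the share linked over all segment genes, which was 83.4% for Ishikawa, 56.1% for T-47D and 58.8% for LNCaP, and nothing particular to a list is read from them. Among 14 genes of transcription and chromatin, 13 were linked in the Ishikawa list, 12 in T-47D and 10 in LNCaP, with medians of 9, 4 and 3 linked anchors. SKIL, a repressor of TGF-beta signalling, had 26, 2 and 2. TP63, the p63 factor of squamous epithelium, had 10 linked anchors in Ishikawa, with 52 read pairs, and 0 elsewhere. SOX2, a pluripotency and squamous lineage factor, had 2 in T-47D, with 6 read pairs, and 0 in the others. ETV5 had 2 in Ishikawa and 0 in the others.

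All 12 genes of growth and kinase signalling were linked in Ishikawa, 11 in T-47D cells and 10 in LNCaP. PIK3CA, the catalytic subunit of phosphoinositide 3-kinase, had 17, 7 and 1 linked anchors and 178, 90 and 20 read pairs. PAK2 had 12, 9 and 3. DGKG, a diacylglycerol kinase gene, had 17 in Ishikawa and 0 in both others. Of 10 genes of ubiquitin and SUMO pathways, 10, 8 and 9 were linked, with medians of 10, 2.5 and 3, and KLHL6 was at 0 in T-47D and LNCaP.

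Of 11 translation genes, 9 were linked in Ishikawa cells (81.8%), 7 in T-47D (63.6%) and 8 in LNCaP (72.7%), which is near the share over all segment genes in Ishikawa and T-47D. Of 8 mitochondrial genes 8, 7 and 6 were linked. EIF4G1, the scaffold of the cap-binding complex, had 86, 154 and 418 read pairs in promoter loops, and EIF4A2 had 17, 84 and 180. EIF2B5 had 41, 411 and 544. IGF2BP2, an RNA-binding protein gene, had 244 in Ishikawa and 0 in both others, and EIF5A2 was at 0 in all 3. The mitochondrial members MRPL47 and NDUFB5 share a promoter anchor and had the same values of 31, 41 and 32.

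All 7 genes of cell junctions and mucins were linked in Ishikawa, with a median of 23 linked anchors, and 3 of 7 in each other line (42.9%), with a median of 0. CLDN1, CLDN11 and CLDN16, which encode claudins of tight junctions, had 7, 10 and 24 in Ishikawa and 0 in both others. MUC4 was joined to 23 distal anchors in Ishikawa, with 776 read pairs, to 1 in T-47D, with 3, and to none in LNCaP. All 9 genes of membrane transport were linked in the Ishikawa list, 5 in T-47D (55.6%) and 6 in LNCaP (66.7%), close to the share over all segment genes in T-47D and above it in LNCaP. ABCC5, a drug and nucleotide exporter gene, had 27 read pairs in Ishikawa, 261 in T-47D cells and 689 in LNCaP. TFRC was even, with 8, 6 and 11 linked anchors.

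Of 8 genes of liver plasma proteins, 4 were linked in Ishikawa cells, 0 in T-47D and 2 in LNCaP, and AHSG and HRG, with 60 and 74 read pairs, were linked in Ishikawa alone. Of 7 neuron and endocrine genes, 4, 1 and 1 were linked, with FGF12 at 21 linked anchors in Ishikawa and 0 in the others, and SST and GHSR at 0 in all. Among noncoding genes, TERC had 97 read pairs in the Ishikawa list, 109 in T-47D and 52 in LNCaP. SOX2-OT, the transcript overlapping SOX2, had 148, 16 and 6. TERC was the more even of these noncoding genes.

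Over the whole segment 89 of 187 genes (47.6%) were linked in all 3 lists, beside 20.6% of the other protein-coding genes, and 21 (11.2%) in none, beside 27.8%. Linked in Ishikawa alone were 43 genes (23%), beside 14.9% of the other genes. Those linked in LNCaP alone were 5 (APOD, CCDC50, CPN2, GMNC and MCF2L2; 2.67%), beside 9.09%, and in T-47D alone 2 (RPL39L and SOX2; 1.07%), beside 2.16%. A further 13 were linked in Ishikawa and LNCaP (6.95%, beside 13.8%), 11 in Ishikawa and T-47D (5.88%, beside 2.83%) and 3 in T-47D and LNCaP (FAM43A, GPR160 and ST6GAL1; 1.6%, beside 8.83%). The share linked at all was higher in the segment in each list, and the selection on loop density bears on these counts too. A gene at 0 had no promoter loop of 3 read pairs or more that passed the authors' filters, which does not show that it lacked contacts.

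Read pairs per gene were then set against the depth of each list. The share of a gene is the read pairs in its promoter loops over all read pairs of the list, with each count taken as at least 3, and genes with 10 or more in either list enter. A share at least 4-fold higher in Ishikawa than in T-47D was found for 49 of 160 segment genes (30.6%), beside 15% of all genes that entered. The opposite was found for 43 (26.9%), beside 42.2%. Ishikawa exceeded LNCaP by at least 4-fold at 87 of 155 genes (56.1%), beside 25.2%, and LNCaP exceeded Ishikawa at 18 (11.6%), beside 40.6%. T-47D exceeded LNCaP at 76 of 118 (64.4%), beside 19.1%, and LNCaP exceeded T-47D at 2 (1.69%), beside 13.5%. The lower list was at 0 for 40 of the 49 genes higher in Ishikawa than in T-47D and for 47 of the 87 higher in Ishikawa than in LNCaP, so these calls rest on setting a 0 to 3 read pairs. The segment was chosen on the same loops, so nothing is read from these shares about the genes as a group, and genes that share a promoter anchor count the same read pairs.

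Setting each gene against the read pairs of the segment alone removes the density of the segment as a whole. On that scale 31 of 160 genes (19.4%) were at least 4-fold higher in Ishikawa than in T-47D and 57 (35.6%) the other way, nearer to the 15% and 42.2% of all genes on whole-list shares. Between Ishikawa and LNCaP the counts were 79 of 155 (51%) and 23 (14.8%), beside 25.2% and 40.6% of all genes on whole-list shares. Between T-47D and LNCaP they were 84 of 118 (71.2%) and 2 (1.69%), beside 19.1% and 13.5%. The 71.2% lay farther from the share over all genes than the 64.4% on whole-list shares, and the 1.69% did not change. In LNCaP the NAALADL2 loops, with 49% of the segment's read pairs, enlarge the total that every other gene is divided by.

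The genes with the largest differences on this scale were mostly at or near 0 in 1 list. No fold is given against a list at 0, since loops under 3 read pairs or outside the authors' filters are not listed and their sum per gene is unknown. MUC4 made up 1.32% of Ishikawa segment read pairs and 0.0277% in T-47D, with 3 read pairs, and was listed at 0 in LNCaP. Its ratio of Ishikawa to T-47D was 47.5 (exact interval for counting error of the listed read pairs 16.2 to 231), and 87.3 on whole-list shares. OPA1 made up 1.01% in Ishikawa and was listed at 0 in both others. ATP11B, a lipid flippase gene, made up 0.781% in Ishikawa and 0.225% in LNCaP and was listed at 0 in T-47D. LAMP3, a lysosomal membrane protein gene, made up 0.589% in Ishikawa and was listed at 0 in both others. MECOM made up 1.71% in Ishikawa and 1.48% in T-47D and was listed at 0 in LNCaP.

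In T-47D, MAP6D1 had 463 read pairs (4.28%), against 3 in Ishikawa and 0 listed in LNCaP. Its ratio of T-47D to Ishikawa was 840 within the segment (exact interval 286 to 4088) and 457 on whole-list shares. PARL, which shares the strongest T-47D loop with it, made up 6.89% in T-47D and 0.0781% in Ishikawa, a ratio of 88.1 within the segment and 48 on whole-list shares. GPR160, an orphan receptor gene, had 48 read pairs in T-47D and 68 in LNCaP and was listed at 0 in Ishikawa. TNFSF10, which encodes the death ligand TRAIL, and TNIK made up 0.878% and 0.601% in T-47D and were listed at 0 in LNCaP.

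In LNCaP, FAM43A had 319 read pairs (0.452%) and was listed at 0 in Ishikawa. BCL6 was 27.3-fold higher in LNCaP than in Ishikawa within the segment and 18.9-fold on whole-list shares, with 786 read pairs against 24. ABCC5 was 21.3-fold and 14.7-fold higher on the same scales, with 689 against 27. LPP was 7.09-fold higher in LNCaP than in T-47D within the segment and 9-fold on whole-list shares, with 1573 against 34. It and ATP11B were the genes past 4-fold in that direction.

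**Figure D5:**
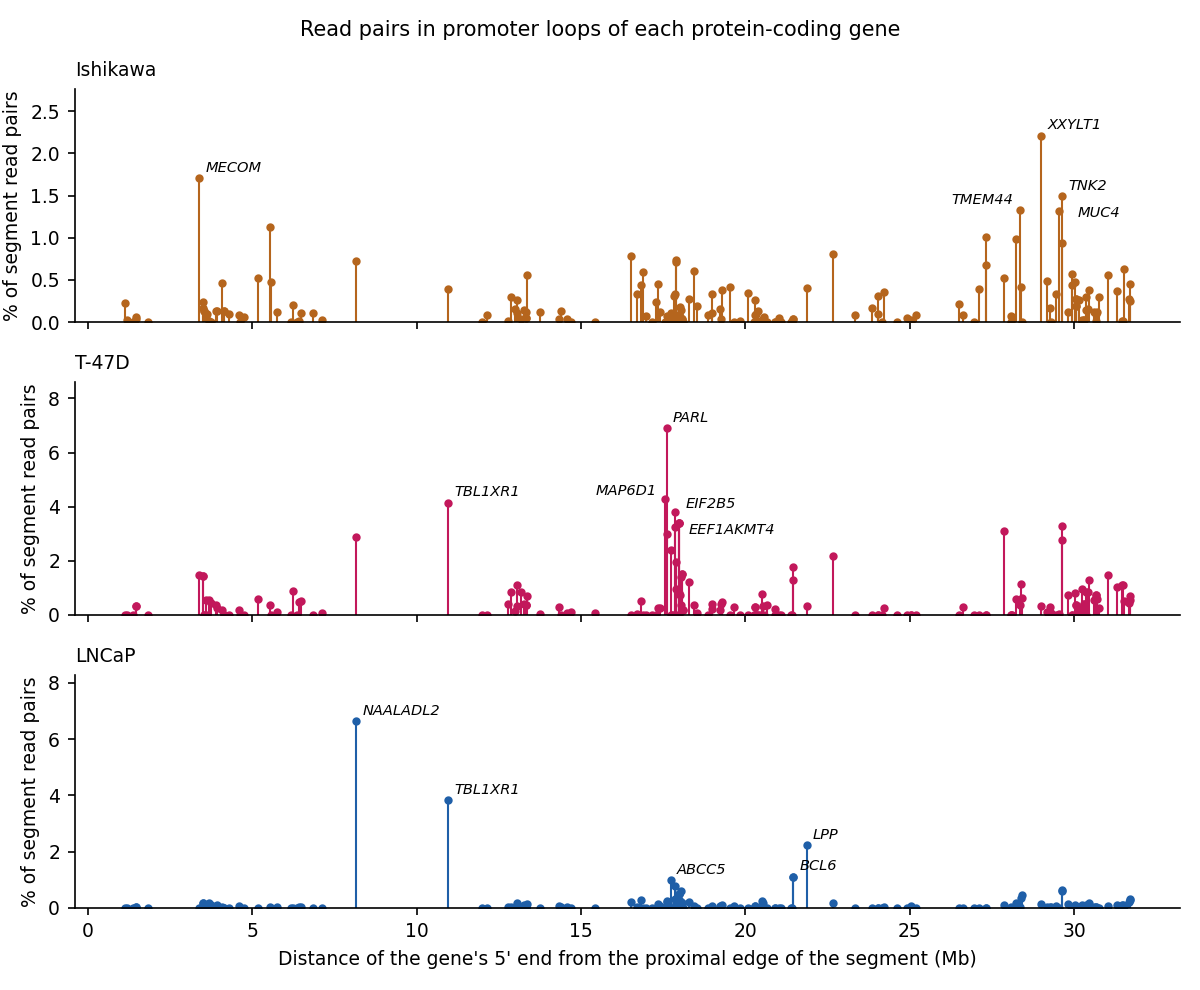
Read pairs in promoter loops of each of the 187 protein-coding genes, as percent of the list's read pairs in the segment (vertical axis, with a scale of its own for each line), against the distance of the gene's 5′ end from the proximal edge in Mb. The 5 highest genes with a symbol are named in each line, among them PARL at 6.89% in T-47D and MECOM at 1.71% in Ishikawa.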

How the data were processed

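H3K27ac HiChIP was measured in 7 samples. The authors aligned reads to hg19 with HiC-Pro, called loops with hichipper, dropped loops under 3 reads or failing a false discovery limit, and merged samples, and versions are not given in the sources used here. The deposited values are counts of read pairs per loop with no scaling for depth, and the lists totalled 351260 to 1805322. Repeated Ishikawa anchor pairs were summed over 4 unlabelled parts, so DMSO and E2 were not compared. Pairs of an anchor with itself or across chromosomes were kept apart.

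Loops were read with Python 3.11.15, numpy 2.4.6 and pandas 2.3.3, with intervals from statsmodels 0.14.6 and scipy 1.17.1 at 95%, and start sites came from GENCODE release 44 lifted to GRCh37. Coordinates are counted from 1. The members and the 9 gene lists were chosen with earlier results of these data known. Named are the 10 genes with most linked distal anchors per line, the 5 genes of highest share ratio per pair and direction, the genes at the 5 strongest loops and 3 leading anchors, and the members of gene lists. Links and ratios were tested on simulated data. Alternatives were a minimum of 5 or 10 read pairs, lists thinned to the depth of T-47D (seed 1), Ishikawa loops in 2 or more parts, leaving out each part, spans of 5 kb to 2 Mb, an edge at 168 Mb, loops with either anchor beyond 166 Mb, bins of 500 kb, read pairs per bin, overlap of 50%, promoters of 2 kb, 1 start site per gene, a 2-fold limit, a floor of 10 read pairs and shares within the segment. Leaving out 174 to 178 Mb, the 4 fullest LNCaP bins, was added after the data were seen.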

Additional observations from a re-analysis of the deposited data

Results flagged for a closer look

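The T-47D list alone held read pairs between chromosomes, which the comparisons above do not use. Of its 70 such pairs of anchors, with 308 read pairs, 19 had 1 end in the segment (27.1%) and these held 98 read pairs. The segment is 1.03% of the length of the nuclear chromosomes and held 3.14% of the T-47D loops. Each listed pair holds at least 3 read pairs, so their sum has no background of its own. Of the 19, 10 ended on chromosome 10 with 48 read pairs, 5 on chromosome 12 with 32, 3 on chromosome 16 with 15, and 1 on the mitochondrial genome with 3. Most of the chromosome 10 pairs met the same anchor there, chr10:75011197-75013777, at CFAP70 and MRPS16. The chromosome 12 ends lay in RERG and their partners at or near MB21D2. The chromosome 16 ends lay at TCF25, at DBNDD1 and GAS8, and at PRDM7, and all 3 met the same segment anchor, chr3:197893938-197896764. The lists of the other lines had no pairs across chromosomes to set beside them, and the T-47D pairs come from 1 sample with no replicate.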

How the results depend on the processing

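Of the values recomputed under the alternatives, 102 kept their direction and stayed within 1.5 times of the value given or, for shares of loops found in another line, within its 95% Wilson interval, 24 moved past these limits and 1 turned direction. At 10 read pairs or more the Ishikawa density ratio was 10, the LNCaP median span over the rest of the list 3.52, the shares found in Ishikawa 5.43% of LNCaP and 14.1% of T-47D loops, and the linked genes 58 in LNCaP and 51 in T-47D. At 5 read pairs those shares were 9.26% and 14.1%. Thinning gave a LNCaP span ratio of 3.65, shares in Ishikawa of 7.5% of LNCaP and 7.8% of T-47D loops, 10.9% of T-47D loops found in LNCaP and 56 linked LNCaP genes. It keeps loops from the top of each list, and Ishikawa and LNCaP then retained 224644 and 254690 read pairs against 351260 in T-47D. With Ishikawa loops of 2 or more parts the shares were 7.23% of LNCaP and 9.16% of T-47D loops, and with 50% overlap 1.02% and 0.606%, with 12.4% of T-47D loops found in LNCaP. Without 174 to 178 Mb the LNCaP density ratio was 1.4, its span ratio 1.18 in place of 2.19, and its mean of read pairs per loop over the rest of the list 0.801 in place of 1.54, which turned its direction. That stretch was picked as the fullest of LNCaP. Genes at least 4-fold higher in Ishikawa than in T-47D numbered 25 with a floor of 10 and 31 on shares within the segment, and those higher in LNCaP than in T-47D 5 at 2-fold and 1 with a floor of 10. Leaving out each Ishikawa part gave density ratios of 6.16 to 6.76. Where no cause is named, the cause was not tested. No paired analysis was possible because each line has 1 pooled list that carries no replicate number. Depth limits the T-47D list most, where a 0 may mean fewer than 3 read pairs at 351260 read pairs in all.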
